A study of Mus musculus with 12 samples.

Results

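The genes described here are *Atp1b1*, *Atp1b2* and *Atp1b3*, which encode beta subunits of the sodium-potassium ATPase, in embryonic mouse hearts. They were taken by symbol from the deposited table and are 3 of its 20368 genes. *Atp1b1* was selected on its lower E12.5 level in mutants, among genes the study picked from that contrast, and the others were added as its family. The hearts were of CD1 strain embryos (CD1-ICR in the study's methods) at E11.5 and E12.5. Control hearts were Mesp1Cre;Hira+/fl, with a functional and a floxed *Hira* allele, and mutant hearts were Mesp1Cre;Hira-/fl, with a constitutive null and a floxed allele. All 4 groups carried Mesp1Cre and a floxed allele, so no group was free of the Cre. The Cre is expressed from the *Mesp1* locus, so it recombines in early mesoderm and not in every cell of the heart. The product of *Hira* is a histone chaperone for H3.3. Each group had 3 libraries of whole-heart RNA. The labels do not say whether a library came from 1 heart or from pooled hearts.

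The sodium-potassium ATPase exports sodium and imports potassium across the plasma membrane at the cost of ATP. Its catalytic alpha subunit needs a beta subunit, a glycoprotein with a single membrane span, to fold and to reach the cell surface. In heart muscle the sodium gradient that the pump maintains drives calcium export through the sodium-calcium exchanger and so sets the calcium available for contraction. *Atp1b1* encodes the beta subunit best known from heart and kidney. *Atp1b2* encodes a subunit first described as an adhesion molecule on glia and abundant in brain. *Atp1b3* encodes a subunit found in many tissues.

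The libraries held 11994148 to 17483982 counts over genes. Whole-gene counts of *Hira* did not separate the genotypes. At E11.5 *Hira* stood at 17.1 ± 1.91 RPKM in controls and 14.3 ± 1.98 RPKM in mutants, and at E12.5 at 16.5 ± 2.81 and 16.4 ± 1.17 RPKM (SD, n = 3). A count over the whole gene does not resolve single exons, so these values did not check the labels. The study reports reduced reads of a *Hira* exon in the mutant RNA-seq as evidence of recombination. Why the whole-gene levels did not separate was not tested. By their Y-linked counts, 3 E11.5 control libraries were called male, and each other group had 1 male and 2 female libraries. A library called male could hold hearts of both sexes if hearts were pooled. Markers of working cardiomyocytes were abundant in all libraries, with summed levels of 8955 to 11980 RPKM over 8 genes. At E12.5, 4 of 5 tested erythroid markers were lower in mutants at an adjusted p of at most 0.05 (edgeR), which 5% of all genes tested had. Their summed level was 3027 to 3785 RPKM against 5506 to 9087 in controls. Markers counted below as lower, higher or passed met the same threshold. Of the other lists at E12.5, 3 of 4 macrophage markers were lower, 3 of 5 neuron and glia markers were higher (summed 23.2 to 27.5 RPKM against 7.96 to 12.1), and 0 of 8 cardiomyocyte markers passed. Epicardial markers were higher for 2 of 6 genes and ventricular markers for 1 of 5, cushion mesenchyme markers were lower for 1 of 5, and no atrial, conduction system, endothelial or liver marker passed. Summed epicardial levels at E12.5 were 256 to 268 RPKM in mutants against 155.5 to 232.5 in controls. Cushion mesenchyme (424 to 448 against 495 to 572) and ventricular markers (7925 to 8541 against 7111 to 7685) did not overlap either. No listed marker passed at E11.5, where 0.115% of all genes tested did. Summed macrophage levels there were 19.5 to 25.8 RPKM in mutants against 43.0 to 62.1 in controls. Neuron and glia (18.5 to 36.2 against 11.0 to 15.6) and cushion mesenchyme (275 to 406 against 437 to 457) did not overlap either. Of single genes tested at E11.5, 16.3% did not overlap between the genotypes. Between stages 4 of 5 erythroid markers were lower in mutants, where 0.556% of all genes tested passed. In controls 3 of 6 epicardial markers were lower and 1 higher, against 11.4% of all genes tested that passed. Markers of other lists passed too. The part of these shifts in the member values was not tested.

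Levels are given as RPKM, reads scaled by gene length and by library size, computed from recovered counts with library sizes scaled by edgeR's TMM method. RPKM is per length, so levels of different genes can be compared, as far as the lengths hold. The lengths in the deposited values were 2422, 2959 and 1833 bases for *Atp1b1*, *Atp1b2* and *Atp1b3*, against 3081, 4085 and 2389 exonic bases in the annotation, and their scale was set by 904 genes whose lengths match the annotation. *Atp1b1* was the most abundant member, with a mean of 177 RPKM over the 12 libraries. It ranked 454th among 17827 genes with reads. *Atp1b3* had a mean of 88.3 RPKM and ranked 977th. *Atp1b2* had a mean of 12.5 RPKM and ranked 5850th. The order *Atp1b1*, *Atp1b3*, *Atp1b2* held in each of the 12 libraries without overlap. On average *Atp1b1* was 14.2-fold and *Atp1b3* 7.06-fold more abundant than *Atp1b2*. All 3 members passed the minimum level for testing, a mean of 0.5 RPKM, in every comparison.

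*Atp1b1* (ENSMUSG00000026576) lies on the - strand of chromosome 1, from 164437267 to 164458355 of GRCm38. In E11.5 controls its level was 169, 206 and 176 RPKM in replicates 1, 2 and 3. The mutants of that stage had 176, 155 and 158 RPKM. At E12.5 the controls had 221, 219 and 188 RPKM and the mutants 153, 148 and 155 RPKM. The E12.5 controls were the highest group and the E12.5 mutants the lowest. Group means were 184 ± 19.7 and 163 ± 11.6 RPKM in controls and mutants at E11.5, and 209 ± 18.5 and 152 ± 3.84 RPKM at E12.5 (SD, n = 3). In the order of the means, neighbouring groups overlapped except the E11.5 and E12.5 mutants, which were parted only by 155.3 against 155.0 RPKM. Each library held 4420 to 9456 *Atp1b1* counts, and counting alone accounts for a coefficient of variation of 1.09% to 1.32%, against 2.53% to 10.7% between replicates.

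*Atp1b2* (ENSMUSG00000041329) lies on the - strand of chromosome 11, from 69599736 to 69605942. Its level was 10.1, 13.9 and 8.32 RPKM in the E11.5 controls and 13.4, 14.7 and 10.1 RPKM in the E11.5 mutants. At E12.5 it was 15.2, 13.5 and 14.8 RPKM in controls and 11.7, 9.66 and 14.8 RPKM in mutants. Its coefficient of variation between replicates was 6.10% to 26.3%, from 347 to 719 counts per library, and was the highest of the members in each group except the E12.5 controls. Ranked by their means, the E12.5 controls (14.5 ± 0.884 RPKM) came first, followed by the E11.5 mutants (12.7 ± 2.35), the E12.5 mutants (12.1 ± 2.57) and the E11.5 controls (10.8 ± 2.83). All neighbours in that order overlapped.

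*Atp1b3* (ENSMUSG00000032412) lies on the - strand of chromosome 9, from 96332680 to 96364299. Its level was 91.7, 93.9 and 98.1 RPKM in the E11.5 controls and 83.6, 101 and 96.0 RPKM in the E11.5 mutants. At E12.5 it was 81.2, 82.3 and 81.6 RPKM in controls and 84.4, 83.7 and 82.0 RPKM in mutants. It was the steadiest member at E12.5, where the replicates varied by 0.679% in controls and 1.45% in mutants. Means were 94.6 ± 3.25 and 93.6 ± 9.12 RPKM at E11.5, and 81.7 ± 0.555 and 83.4 ± 1.21 RPKM at E12.5, in controls and mutants. Neighbouring groups in the order of these means overlapped.

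**Figure D1:**
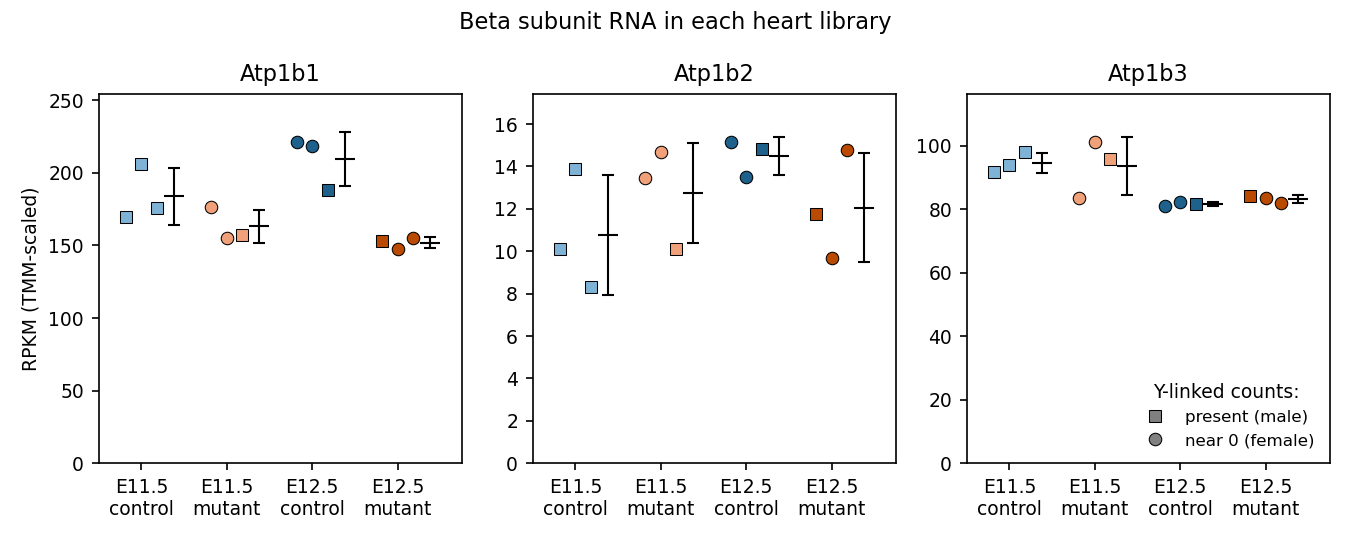
Level of each beta subunit gene in RPKM (vertical axes, TMM-scaled, each from 0) in the 12 heart libraries, by group. Squares are libraries called male and circles libraries called female by Y-linked counts, and the bar beside each group is its mean with SD (n = 3). For Atp1b1 the E12.5 mutants (148 to 155 RPKM) sit below the E12.5 controls (188 to 221 RPKM), while Atp1b3 stays between 81.2 and 84.4 RPKM at that stage.

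No entry for *Atp1b2* was in the promoter set used here, so 2 of the 3 members are shown. The 250 bases before the start of *Atp1b1* and *Atp1b3* are printed below. They are from RefSeq on GRCm38.p6, at chr1:164458356-164458605 and chr9:96364432-96364681, both read on the - strand, 5′ to 3′. Capitals mark the GC box (GGGCGG), the CCAAT box (letters as named) and the GAGA repeat (GAGAGA), each searched on both strands. A GAGA repeat of 8 letters, longer than the form marked here, figures in the study's HIRA binding work.
Atp1b1: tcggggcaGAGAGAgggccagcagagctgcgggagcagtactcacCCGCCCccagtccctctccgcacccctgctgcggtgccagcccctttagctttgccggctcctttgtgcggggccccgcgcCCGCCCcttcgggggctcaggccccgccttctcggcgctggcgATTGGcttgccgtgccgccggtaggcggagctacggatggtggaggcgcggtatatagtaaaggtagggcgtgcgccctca
Atp1b3: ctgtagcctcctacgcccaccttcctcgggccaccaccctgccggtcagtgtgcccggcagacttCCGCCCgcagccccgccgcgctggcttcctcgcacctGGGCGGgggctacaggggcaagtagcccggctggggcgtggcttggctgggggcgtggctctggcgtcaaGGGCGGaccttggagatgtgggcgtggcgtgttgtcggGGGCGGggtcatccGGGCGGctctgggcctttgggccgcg
The *Atp1b1* stretch held 2 GC boxes, 1 CCAAT box and 1 GAGA repeat, and the *Atp1b3* stretch 5 GC boxes and none of the others. No marked matches overlapped, and the repeat of 8 letters was in neither stretch. RefSeq lists another start of *Atp1b3*, whose preceding 250 bases are not printed. They held 1 E-box and none of the marked motifs, with a GC content of 76.8%. Of 32851 promoters of this length, 32.7% held a GC box, 33.8% a CCAAT box and 20.2% a GAGA repeat. The TATA box, searched only as the exact letters TATAAA and held by 12.4% of promoters, was in neither printed stretch. Nor was the E-box (CACGTG), held by 6.02%, or the GATA site (AGATAA), held by 9.99%. Near its end the *Atp1b1* stretch holds the letters tatata, a form that was not searched. GC content was 70.4% for *Atp1b1* and 73.6% for *Atp1b3*, against a median of 52.4%. These matches describe letters only, and no binding was measured here.

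The comparison of genotypes at E11.5 asks how these hearts differed a day before the later stage. None of the 3 members passed the test at E11.5. The test was edgeR's quasi-likelihood test with Benjamini-Hochberg adjustment over all 12197 genes tested, and a gene passed at an adjusted p of at most 0.05, which 0.115% of the genes did. None had an unadjusted p under 0.05, as 10.2% of genes did, and DESeq2 also called 0 of 3. *Atp1b1* had a log2 fold change of -0.18 in mutants (SE 0.13, 95% interval -0.47 to 0.12, adjusted p = 0.764), and 2 of 3 mutant libraries lay below every control. The interval for *Atp1b1* includes both no change and a fall to 0.721 of the control level. *Atp1b2* had a log2 fold change of 0.24 (SE 0.21, 95% interval -0.23 to 0.71, adjusted p = 0.812). *Atp1b3* had a log2 fold change of -0.02 (SE 0.12, 95% interval -0.29 to 0.26, adjusted p = 0.985). Leaving out single libraries moved *Atp1b1* from -0.23 (without mutant replicate 1) to -0.08 (without control replicate 2) and *Atp1b2* from 0.08 (without control replicate 3) to 0.47 (without control replicate 2). Genotypes overlapped for each member, while 16.3% of genes showed no overlap. The E11.5 controls were all male, and with sex as a covariate the estimate was -0.0816 for *Atp1b2* and 0.0312 for *Atp1b3*, each on the other side of 0. These adjusted estimates rest on mutant replicate 3, the only E11.5 mutant library called male.

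At E12.5 *Atp1b1* was lower in the mutants. Since the members were chosen by this contrast, their E12.5 genotype values are a description without a test. The *Atp1b1* level in mutants was 0.725 of that in controls, a log2 fold change of -0.46 (SE 0.08, 95% interval -0.64 to -0.29), and the genotypes did not overlap. Of the 12257 genes tested at E12.5, the genotypes of 26.2% did not overlap and 5% had an adjusted p of at most 0.05. Among libraries called male the single control had 188 RPKM and the single mutant 153 RPKM. Among those called female the controls had 219 and 221 RPKM and the mutants 148 and 155 RPKM. Leaving out any single library gave log2 fold changes of -0.54 to -0.42. *Atp1b2* had a log2 fold change of -0.27 (SE 0.14, 95% interval -0.57 to 0.03) and overlapped, since mutant replicate 3, at 14.8 RPKM, lay within the control range. Without that library the *Atp1b2* value was -0.44, and without mutant replicate 2 it was -0.13. *Atp1b3* had a log2 fold change of 0.03 (SE 0.07, 95% interval -0.12 to 0.17) and overlapped. In bulk RNA, fewer cells of a type and less RNA per cell cannot be told apart. The part of the shifts in blood cell, neuron and glia, epicardial, ventricular and cushion mesenchyme markers in the *Atp1b1* and *Atp1b2* values was not tested.

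The effect of the mutation was compared between the stages as E12.5 less E11.5. This difference was -0.29 on the log2 scale for *Atp1b1* (95% interval -0.60 to 0.03), -0.51 for *Atp1b2* (-1.11 to 0.08) and 0.04 for *Atp1b3* (-0.22 to 0.31). These differences rest in part on the contrast that chose the genes. Their intervals are a description and carry no test, so they do not say whether the effect differed between the stages.

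The comparison of stages in controls sets Mesp1Cre;Hira+/fl hearts of E12.5 against those of E11.5. In controls none of the 3 members passed, against 11.4% of 12252 genes. The E12.5 libraries also entered the contrast that chose *Atp1b1*, so its values between stages, here, in mutants and as shares, are not independent of that choice. *Atp1b2* and *Atp1b3* had unadjusted p under 0.05, so 2 of 3 did against 32.8% of genes, and DESeq2 called 0 of 3 with its own adjustment. *Atp1b1* had a log2 fold change of 0.19 from E11.5 to E12.5 (SE 0.11, with adjusted p = 0.269 by edgeR). *Atp1b2* had a log2 fold change of 0.43 (SE 0.16, with adjusted p = 0.104 by edgeR). *Atp1b3* had a log2 fold change of -0.21 (SE 0.08, with adjusted p = 0.114 by edgeR), and its 3 controls at E12.5 lay below all 3 at E11.5, as stages did not overlap for 37.4% of genes. The exact permutation p for *Atp1b3* was 0.1, the smallest that 3 against 3 allows. Without E11.5 control replicate 2, the highest of its group, *Atp1b2* passed, with a log2 fold change of 0.64 and an adjusted p of 0.00512 (edgeR). Over its 13 alternatives that adjusted p ranged from 0.00512 to 0.552. The E11.5 controls were all male and 2 of the E12.5 controls female. With sex as a covariate the *Atp1b1* estimate moved to 0.03. That adjusted estimate rests on E12.5 control replicate 3, the only library of its group called male.

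In mutants none of the 3 members passed between the stages, against 0.556% of 12238 genes, and none had an unadjusted p under 0.05, which 9.27% of genes had. DESeq2 called 0 of 3. The log2 fold change was -0.11 for *Atp1b1* (SE 0.10, with adjusted p = 0.777 by edgeR). The value was -0.09 for *Atp1b2* (SE 0.19, with adjusted p = 0.891 by edgeR) and -0.18 for *Atp1b3* (SE 0.11, with adjusted p = 0.674 by edgeR). Without E11.5 mutant replicate 2 or E12.5 mutant replicate 2 the *Atp1b2* estimate lay above 0, at 0.02 or 0.05. The *Atp1b1* stages did not overlap, by the narrow margin given above, and 17.4% of genes shared that separation. The control and mutant comparisons of stages, and the genotype comparisons, share libraries, so their values stand side by side without a test of likeness.

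**Figure D2:**
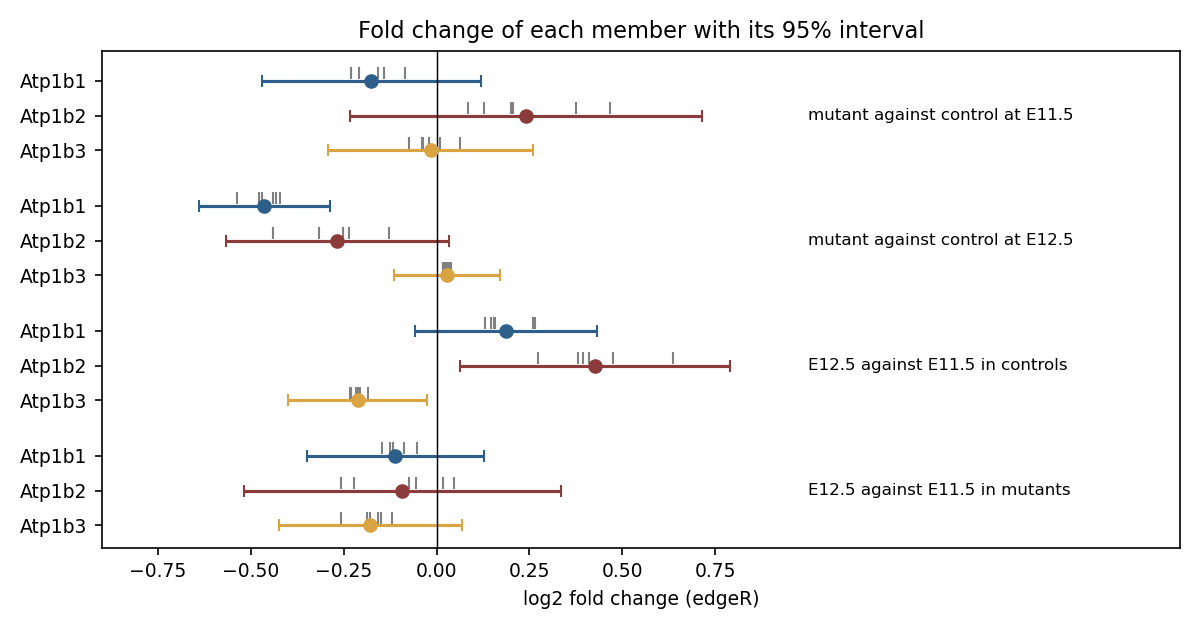
Log2 fold change of each member (horizontal axis, edgeR, mutant over control or E12.5 over E11.5 as labelled at right) with its 95% interval. Grey ticks are the estimates after leaving out single libraries. The interval of Atp1b1 at E12.5 (-0.64 to -0.29) is a description of the contrast that chose it, and none of the 9 tested values in the other comparisons passed.

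The balance of the beta subunits within a library does not depend on its size. *Atp1b1* made up 63.5 ± 1.92% of the summed RPKM of the 3 members in controls and 60.5 ± 3.70% in mutants at E11.5 (SD, n = 3). At E12.5 the controls had shares of 69.7, 69.5 and 66.1% and the mutants of 61.5, 61.3 and 61.6%. The E12.5 controls had the highest shares of all groups, while the E12.5 mutants varied by only 0.146 percentage points (SD). *Atp1b3* made up 32.8, 34.8, 26.8 and 33.7% on average in the groups in the same order, and *Atp1b2* 3.70, 4.72, 4.76 and 4.86%. From E11.5 to E12.5 in controls the share of *Atp1b1* differed by 4.96 percentage points (higher at E12.5) and that of *Atp1b3* by -6.02 points (lower), both without overlap. The exact two-sided permutation p was 0.1 for each, the smallest possible with 3 against 3, and 0.45 after adjustment over 9 share tests, so neither passed. Both shares use the E12.5 control values of *Atp1b1*, which entered the contrast that chose it, so they are not independent of that choice. In mutants between stages the *Atp1b1* share differed by 0.936 points (exact p = 0.7), and between genotypes at E11.5 by -2.98 points (exact p = 0.3). Leaving out single libraries gave -4.99 points (without mutant replicate 1) to -1.35 points (without mutant replicate 2) for the latter. At E12.5 the *Atp1b1* share differed by -7.01 points, mutant minus control (61.4 ± 0.146% against 68.4 ± 2.02%, SD, n = 3) and the *Atp1b3* share by 6.90 points, with no overlap, as a description. The level of *Atp1b3* differed little there, so the summed level of the members was lower in mutants, at 247 ± 5.68 RPKM against 306 ± 18.3 RPKM.

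**Figure D3:**
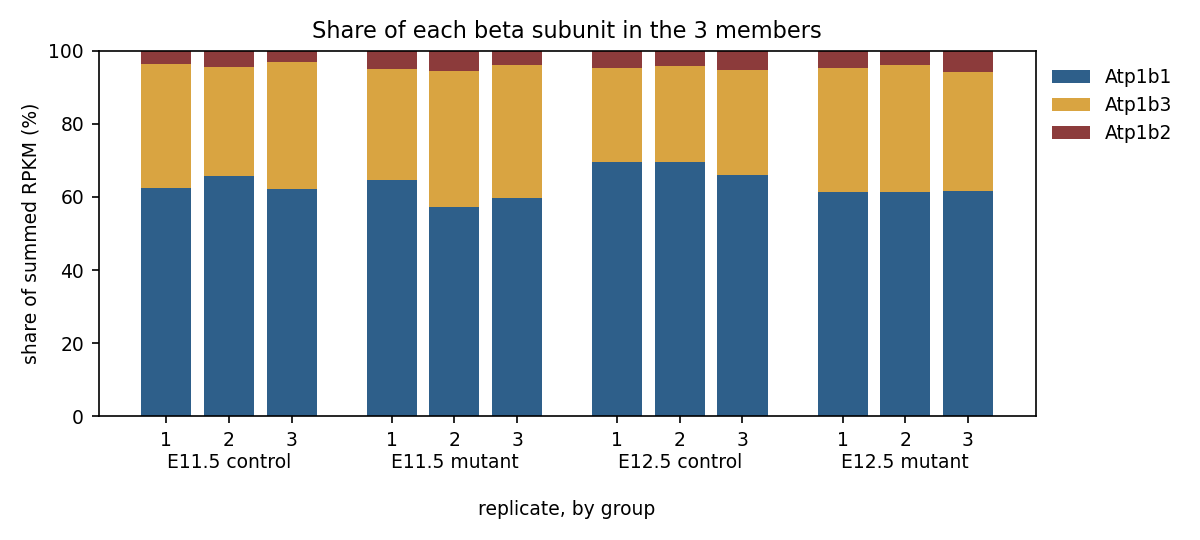
Share of each beta subunit gene in the summed RPKM of the 3 members (vertical axis, percent) in each library, with replicates 1 to 3 under each group. Atp1b1 takes 66.1 to 69.7% of the E12.5 controls but 61.3 to 61.6% of the E12.5 mutants, and Atp1b2 stays below 6% throughout.

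The ratio of *Atp1b1* to *Atp1b3* was 1.95 ± 0.220 in controls and 1.76 ± 0.308 in mutants at E11.5. A day later it was 2.56 ± 0.226 in controls and 1.82 ± 0.0626 in mutants (SD, n = 3). The 3 E12.5 controls, at 2.31 to 2.73, lay above the other 9 libraries, which ranged from 1.53 to 2.20. These ratios repeat the genotype contrast that chose *Atp1b1* and were not tested.

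*Nme7*, a gene of the nucleoside diphosphate kinase family, overlaps the 3′ end of *Atp1b1* on the opposite strand by 617 bases, 575 of them exonic in both. The use of strand in counting is not given in the sources used here, so reads there cannot be assigned to either gene. At E12.5 *Nme7* was at 10.4 ± 0.398 RPKM in controls and 10.6 ± 0.841 RPKM in mutants (SD, n = 3), with a log2 fold change of 0.03 (SE 0.09, with adjusted p = 0.882 by edgeR). At E11.5 the *Nme7* log2 fold change was -0.02 (SE 0.13, with adjusted p = 0.983 by edgeR). No annotated gene overlapped *Atp1b2* or *Atp1b3*.

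A list of 35 genes around the pump was examined beside the members, without the alpha subunits. It holds FXYD regulators, interacting proteins, related pumps, sodium-driven transporters and kinases or ligases that act on ion transport. Of these genes 31 had reads and 22 were tested in each comparison. At E11.5 none passed (edgeR), against 0.115% of all genes, with 2 at an unadjusted p under 0.05 (10.2% of all genes) and 0 by DESeq2. At E12.5, 1 of 22 passed, against 5% of all genes, and was higher with a fold under 1.5. DESeq2 called 2, and 6 of 22 had an unadjusted p under 0.05 against 21.4% of all genes. The median log2 fold change of the list at E12.5 was -0.13, with 9 genes above 0 and 13 below, against a median of -0.0018 over all genes tested. In controls between stages 1 of 22 passed and was higher, against 11.4% of all genes, with 7 at an unadjusted p under 0.05 (32.8% of all genes) and 3 by DESeq2. In mutants between stages none passed, against 0.556% of all genes, with 1 at an unadjusted p under 0.05 (9.27% of all genes) and 0 by DESeq2.

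The gene that passed at E12.5 was *Sgk1*, a kinase induced by mineralocorticoids that raises sodium transport. *Sgk1* was at 6.85, 7.41 and 7.77 RPKM in E12.5 controls and 11.1, 9.74 and 8.67 RPKM in mutants. All mutants lay above all controls, with a log2 fold change of 0.42 (SE 0.11, with adjusted p = 0.0460 by edgeR). It passed in 6 of 14 settings, this one included, with adjusted p from 0.0171 to 0.161, and it lost the call without any one of the 3 controls or without mutant replicate 1 or 2. At E11.5 its log2 fold change was 0.17 (SE 0.12, with adjusted p = 0.747 by edgeR), and the difference between the stages was not tested. *Nkain1*, a membrane protein named for its interaction with the pump, was just over the threshold at E12.5. Its level was 10.5, 9.92 and 12.0 RPKM in controls and 14.7, 15.4 and 12.9 RPKM in mutants. The log2 fold change of *Nkain1* was 0.41 (SE 0.10, with adjusted p = 0.0503 by edgeR), and it passed in 5 of 14 settings. *Slc4a4*, a sodium-bicarbonate cotransporter, was also near the threshold. Its level was 4.69, 4.52 and 4.33 RPKM in controls and 3.44, 3.48 and 3.84 RPKM in mutants, without overlap. The log2 fold change of *Slc4a4* was -0.33 (SE 0.09, with adjusted p = 0.0592 by edgeR), and it passed in 0 of the 13 settings that tested it.

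*Wnk1*, a kinase that governs sodium, potassium and chloride transport, was the gene that passed between stages in controls. *Wnk1* was at 31.6, 33.8 and 29.4 RPKM in E11.5 controls and 48.2, 40.2 and 38.7 RPKM in E12.5 controls. The log2 fold change was 0.42 (SE 0.11, with adjusted p = 0.0388 by edgeR), and the stages did not overlap. *Wnk1* passed in 8 of 14 settings. With sex as a covariate its estimate was 0.29, a value that rests on the only E12.5 control called male. Leaving out E11.5 control replicate 1 or 3, or E12.5 control replicate 1 or 2, ended the *Wnk1* call, with adjusted p of 0.0910, 0.0928, 0.164 and 0.117 (edgeR).

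The list also holds genes more abundant than the members. *Fxyd1*, which encodes phospholemman, the regulator of the pump in heart muscle, had group means of 304 to 399 RPKM, above *Atp1b1*. At E11.5 its log2 fold change between genotypes was -0.23 (SE 0.22, with adjusted p = 0.839 by edgeR), and the E12.5 value was 0.04 (SE 0.07, with adjusted p = 0.789 by edgeR). *Atp2a2*, the calcium pump of the sarcoplasmic reticulum, had group means of 247 to 310 RPKM. The genotypes differed in *Atp2a2* by 0.12 (E11.5) and -0.02 (E12.5) on the log2 scale (adjusted p = 0.907 and 0.941, edgeR). *Slc8a1*, the sodium-calcium exchanger of heart muscle, was at 71.2, 54.0 and 52.8 RPKM in E12.5 controls and 40.8, 41.1 and 58.5 RPKM in mutants. Mutant replicate 3 lay within the control range. *Slc8a1* had a log2 fold change of -0.34 (SE 0.15, with adjusted p = 0.216 by edgeR). Without mutant replicate 3 it was -0.54 (adjusted p = 0.0412, edgeR), the only setting at E12.5 in which *Slc8a1* passed. The highest of the interacting proteins was *Nkain4*, at 22.4 to 26.4 RPKM.

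**Figure D4:**
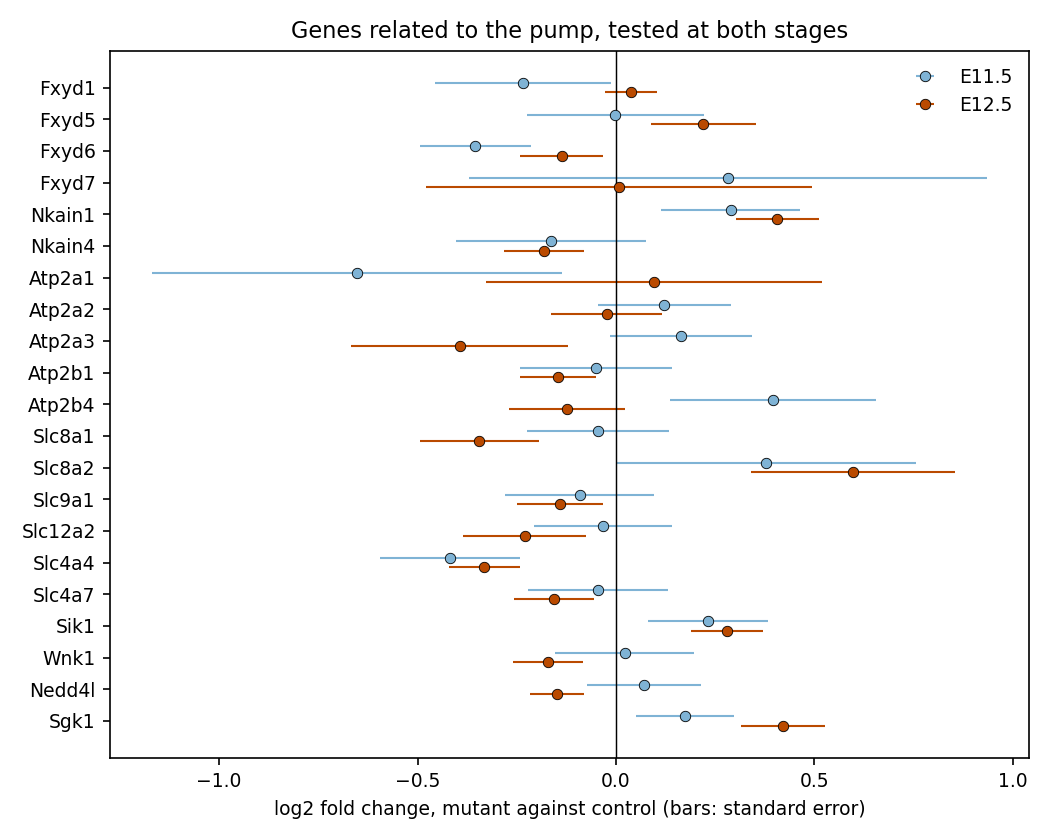
Log2 fold change of mutant over control (horizontal axis, edgeR, bars are standard errors) at E11.5 and E12.5 for the genes of the pump-related list tested at both stages, without the alpha subunits. Sgk1 at E12.5 (0.42) is the only value that passed, and Nkain1 at E12.5 (0.41) is just over the threshold.

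The genes whose pattern was most like that of each member were ranked by Pearson's r of log2 CPM over the 12 libraries, among 8751 genes with a mean of at least 5 RPKM, with the alpha subunits left out. These correlations are a description, since libraries share genotype, stage and composition. For *Atp1b1* they were *Dctn4* (r = 0.905), which encodes a dynactin subunit, *Pcsk6* (0.887), a proprotein convertase, *Ggps1* (0.862), *Smg8* (0.851) and *Igf1r* (0.844), the receptor of insulin-like growth factor 1. For *Atp1b2* they were *Nup214* (0.936) and *Pom121* (0.917), both nuclear pore proteins, *Hif3a* (0.933), *Mrs2* (0.924) and *Mettl14* (0.913). For *Atp1b3* they were *1700052N19Rik* (0.959), *Cab39l* (0.921), *Med8* (0.916), a Mediator subunit, *Spc25* (0.893), a kinetochore protein, and *Gtf2f2* (0.889). With group means removed, r was 0.575 for *Dctn4*, 0.961 for *Nup214* and 0.874 for *1700052N19Rik*. The genes named were the highest of all compared, so r between the members is given as a description only. Over the 12 libraries r was 0.41 between *Atp1b1* and *Atp1b2*, -0.26 between *Atp1b1* and *Atp1b3*, and -0.41 between *Atp1b2* and *Atp1b3*. With group means removed these were 0.47, -0.42 and -0.19.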

How the data were processed

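RNA-seq of 12 embryonic heart libraries was analysed. Per the labels and the study's methods, reads were aligned to mm10 with Bowtie2 and normalised with DESeq. The counting program, annotation and use of strand are not given in the sources used here. The authors deposited a table named RPKM, whose score values are each a whole count times a gene length times a library factor, and group average counts, which are estimated counts because a mean can hold a fraction. Counts were recovered from both for 17827 genes, all within 5.97e-10 of a whole number, and RPKM was recomputed from them. The deposited fold changes and p-values were not used. Recovery and test were checked on simulated data.

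Genes with a mean of at least 0.5 RPKM over the 6 libraries of a comparison were tested with edgeR 4.0.16 (TMM, quasi-likelihood) in R 4.3.3, with Benjamini-Hochberg adjustment over all genes tested. Standard errors were derived from the F statistic. Where the design foresaw RPKM or counts, counts were used. Where nothing says that libraries came from separate litters, p-values measure the spread between these libraries. Intervals and counting errors do not cover amplification. Named genes were the 3 members, the list genes that passed or had the highest level, genes overlapping a member, and the 5 genes most alike to each. *Nkain1* and *Slc4a4*, and the settings named beside *Slc8a1*, were picked once their values had been seen. The members and lists were chosen with earlier results of these data known. The alpha subunit genes of the list are not reported here. Alternatives were other filters, median-ratio scaling, DESeq2 1.42.0, all libraries in 1 fit, a replicate block, sex as a covariate and each library left out.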

Additional observations from a re-analysis of the deposited data

Results flagged for a closer look

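*Atp1b4*, the X-linked relative of the members whose product in placental mammals is known as a muscle protein of the nuclear envelope, lies outside the genes of the deposited comparisons. Its counts were 0, 1 and 0 in E11.5 controls, 2, 7 and 0 in E11.5 mutants, 1, 2 and 1 in E12.5 controls and 8, 4 and 18 in E12.5 mutants. The 3 E12.5 mutant libraries together held 30 counts, against 4 in the E12.5 controls, and each lay above every control. It was singled out as a signal in data outside the comparisons, above the level in controls. Mutant replicate 3 holds 18 of the 30 counts. The difference was not tested.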

How the results depend on the processing

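The 9 member tests were repeated under 117 alternatives in all, of which 110 kept direction and side of the threshold, 6 turned the direction and 1 gained a call. With sex as a covariate at E11.5 the log2 fold change turned to -0.0816 for *Atp1b2* and 0.0312 for *Atp1b3*, resting on the only E11.5 mutant library called male. Leaving out single libraries gave -0.0751 to 0.0640 for *Atp1b3* between genotypes at E11.5, 0.27 to 0.64 for *Atp1b2* between stages in controls, and -0.257 to 0.0481 for *Atp1b2* between stages in mutants. The gained call was *Atp1b2* without E11.5 control replicate 2. Leaving out single libraries gave -0.70 to 2.95 percentage points for the *Atp1b1* share between stages in mutants, and otherwise turned no share of *Atp1b1*. The cause of these changes was not tested. For *Atp1b1* at E12.5 the alternatives gave log2 fold changes of -0.54 to -0.42.

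Of the pump-related genes, the 1 that passed at E12.5 became 0 at a fold of at least 1.5, at a mean of at least 5 RPKM, with the 12 libraries in 1 fit and with the replicate block. It became 2 with DESeq2, with sex as a covariate and without the low-count filter, and 0 to 3 with single libraries left out.

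The labels do not say whether replicate numbers pair the libraries, and the values did not settle it between genotypes. Unlike-numbered libraries had correlations of deviations of -0.44 to 0.21 at E11.5 and -0.0759 to 0.0279 at E12.5. Same-numbered libraries had correlations of deviations of 0.00243 to 0.4 at E11.5, 0.0272 to 0.062 at E12.5, -0.115 to 0.147 in controls and -0.0219 to 0.0588 in mutants. Of 6 libraries, 4, 5, 2 and 2 correlated best with their own number. With the replicate block, genes passing went from 14 to 73 at E11.5, 613 to 674 at E12.5, 1402 to 1860 in controls and 68 to 36 in mutants. The block changed no member call, and gave -0.17 for *Atp1b1* at E11.5, 0.45 for *Atp1b2* in controls and -0.17 for *Atp1b3* in mutants. With 3 libraries a group, no exact permutation test could go below 0.1.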
